A study of Arabidopsis thaliana with 22 samples.

Results

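The comparison described here sets wild-type Arabidopsis seedlings grown under continuous red light against wild-type seedlings grown in darkness. It rests on 5 of the 22 ATH1 arrays of the series, 1 array per RNA sample: 2 arrays of red-grown seedlings (R50, replicates 1 and 2) and 3 arrays of dark-grown seedlings (replicates 2, 3 and 4). These 5 were chosen because the series text gives them as labelled with the One-cycle kit, and a further dark wild-type array, replicate 1, was labelled with the 3' IVT Express kit and stayed out of the contrast. All 5 samples were whole seedlings, 4 days old, of the accession Landsberg erecta (Ler) without a mutation named in the labels. Their seeds had spent 4 days in the cold and dark and received 3 h of white light before growth, so the dark group had seen light once. R50 seedlings then grew under red light of 50 µmol m-2 s-1 and were collected in it, and dark seedlings were collected under dim green light. The other arrays hold 2 phytochrome mutants in the same accession, phyABDE and phyABCDE, each grown in the same 2 conditions and also given 2 h of red light after darkness. Titles call the samples biological replicates, but nothing in the labels says that they came from separate sowings. The p-values measure the spread between samples within groups, pooled over all 22 arrays, 17 of them of the other kit. That spread may be technical.

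Phytochromes are the red and far-red light receptors of plants. In darkness a seedling puts its growth into a long hypocotyl, keeps its cotyledons closed and holds its plastids as etioplasts; in red light, active phytochromes enter the nucleus, remove a group of growth-promoting transcription factors, and the hypocotyl slows while leaves, stomata and chloroplasts develop. In whole seedlings, fewer cells of a type and less RNA per cell cannot be told apart, which holds for every difference below.

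Values are log2 of the deposited array intensity, and a change is the R50 mean minus the dark mean on that scale. A gene was called when the limma fit over all 22 arrays gave an adjusted p under 0.05 over the 22746 probe sets tested. Of those, 13513 are annotated with 1 gene, which gives 13350 different genes with the brightest probe set kept for each, and 11798 of these carry a locus code and no symbol. No gene name or role was given here to a locus code. Present or absent calls were not used here, so a low level may be background, and levels are not compared between genes. Replicates lay close together: dark arrays correlated at 0.987 to 0.991 with each other across probe sets, the 2 R50 arrays at 0.993, and dark with R50 arrays at 0.952 to 0.959. The number of arrays limits the precision, and the 95% interval of a log2 change reached 0.34 to either side for the median probe set.

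Red light changed 3229 of the 13350 named genes (24.2%), in both directions alike. Of these, 1622 (12.1%) were called higher and 1607 (12.0%) lower, and the median change over all named genes was -0.02. Changes of at least 2-fold were called higher in 592 genes (4.43%) and lower in 498 (3.73%). At 4-fold or more the counts were 145 higher and 96 lower, at 8-fold or more 33 and 16, and at 16-fold or more 6 and 5. Genes with a locus code only made up 900 of the genes past 2-fold, 45 of those past 8-fold and 10 of the 11 past 16-fold. Of the 3229 genes called, 3183 had dark and R50 values that did not overlap, where non-overlap in all named genes amounted to 21.0% higher and 23.3% lower. Among genes called at 2-fold, the 2 R50 arrays differed by a median of 0.225 and the 3 dark arrays spanned a median of 0.467. Leaving out each of the 5 arrays in turn kept 871 of the 1622 higher calls and 792 of the 1607 lower calls in every such fit, and 546 of 592 and 444 of 498 at 2-fold.

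**Figure D1:**
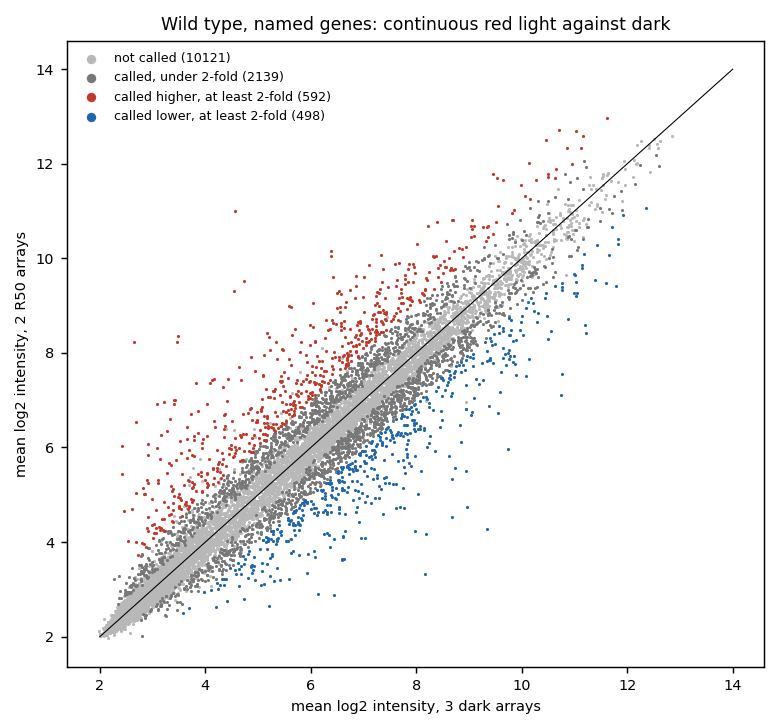
Mean log2 intensity of the 3 dark arrays (horizontal) against the 2 R50 arrays (vertical), 1 point for each of the 13350 named genes, with the line of equal levels. The 592 genes called higher and 498 called lower at 2-fold lie on both sides along most of the range of levels, and the genes farthest above the line start from low dark levels.

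Calls were rare among dim probe sets. Over all 22746 probe sets 27.5% were called, with 5.25% higher and 4.45% lower at 2-fold, and the groups did not overlap in 22.2% upward and 24.8% downward. With probe sets split by mean level into 5 equal classes, the dimmest class, up to 3.03, had 1.60% called higher and 0.813% lower. The brightest class, above 7.67, had 19.6% called higher and 21.96% lower. Genes with a symbol were called in 30.3% of cases at a median level of 6.22, and genes with a locus code only in 23.4% at a median level of 4.73. The 8730 probe sets without a name here held 1433 higher and 1442 lower calls. Of 989 genes that RefSeq lists as pseudogenes, 5 were called, at a median level of 2.65, and of 12287 protein-coding genes 1615 were called higher and 1595 lower. Calls spread over the nuclear chromosomes, from 22.3% of named genes on chromosome 2 to 26.4% on chromosome 1. Where a gene had several probe sets, no gene was called in opposite directions. Of 59 such genes with a called probe set, 51 had all probe sets on one side of 0. In only 14 of the 59 was every probe set called.

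Genes were ranked among those called, without overlap between the groups and with a brighter mean of at least 6. The 15 largest rises by this rule were between 11.7-fold and 86.7-fold, and 13 of the 15 genes carry a locus code only. AT5G48490 stood at 4.28, 4.09 and 5.31 in the dark arrays and at 10.98 and 11.02 in the R50 arrays, a rise of 6.44 ± 0.39 (SE). AT1G22690 stood at 2.62, 2.80 and 2.53 in darkness and at 7.75 and 8.71 in red light, a rise of 5.58 ± 0.19. Both genes were low in every dark array and high in both R50 arrays, with a gap between the groups several times wider than either group. AT4G28780 rose by 4.87, from 3.58, 3.58 and 3.31 to 8.29 and 8.44. AT3G57020 rose by 4.78, from 4.10, 4.98 and 5.10 to 9.63 and 9.39, and AT5G38980 by 4.76, from 4.83, 4.19 and 4.62 to 9.30 and 9.33. None of the 5 genes had a dark value within 3 log2 units of an R50 value.

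AT3G22060 rose by 4.76, from 2.76, 2.92 and 4.71 to 7.91 and 8.53, and its dark replicate 4 was far above the other dark arrays without reaching the R50 values; without that array the rise was 5.38. The remaining rises with a locus code only were those of AT5G43450 (3.85), AT1G33811 (3.76), AT2G29360 (3.75), AT2G34620 (3.67), AT1G65490 (3.62), AT3G44970 (3.59) and AT3G19850 (3.58). AT1G33811 and AT2G34620 were already at 6.28 to 6.55 and 5.99 to 6.68 in darkness, while AT1G65490 was at 2.37 to 2.48. The 2 genes with a symbol were IQD24, of a family of calmodulin-binding proteins, and THI2.2, which encodes a thionin, a small antimicrobial peptide. IQD24 stood at 2.94, 3.07 and 3.26 in darkness and 6.83 and 7.02 in red light, and THI2.2 at 3.69, 4.10 and 3.66 against 6.99 and 7.74. Neither had overlapping groups, which the ranking rule required.

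The 15 largest falls, by the same rule, were between 8.27-fold and 33.5-fold. OLEO3, an oleosin that coats the oil bodies of seeds, stood at 9.56, 9.07 and 9.38 in darkness and 4.12 and 4.42 in red light, a fall of 5.06 on the log2 scale (SE 0.14). AT4G22460 fell by 4.84, from 8.24, 7.95 and 8.28 to 3.37 and 3.27. In both, the 3 dark arrays lay close to each other and all R50 values were far below them. AT2G34020 fell by 4.23, AT5G02580 by 4.15, AT5G57670 by 4.01 and AT4G35720 by 3.76. The other, dimmer probe set of AT5G57670, at a mean level of 3.70, fell by only 1.06. AT4G22490 stood at 11.52, 10.42 and 10.32 in darkness and at 7.27 and 6.96 in red light. TUB1, a beta-tubulin of the microtubules, stood at 10.70, 10.61 and 10.96 in darkness and at 7.74 and 7.37 in red light, a fall of 3.20 on the log2 scale. It was the only other gene with a symbol among the 15 falls.

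AT3G05950 fell by 3.73, from 7.34, 8.56 and 8.00 to 4.11 and 4.36. Its dark array of the other kit stood at 5.39, below every dark array in the contrast and above both R50 arrays, and with that array pooled in and no term for the kit the fall was 3.08 on the log2 scale. The last 6 falls were AT1G72290 (-3.56), AT5G19100 (-3.45), AT5G66590 (-3.34), AT1G70270 (-3.24), AT4G16670 (-3.18) and AT5G38710 (-3.05). All 30 genes kept their call with each of the 5 arrays left out. The size of a rise from a dim level depends on the scale: with an offset of 16 intensity units added before log2, the fold was over 1.5 times smaller for 13 of the 15 rises and 8 of the 15 falls, and AT5G48490 rose by 5.68 and AT1G22690 by 3.83.

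**Figure D2:**
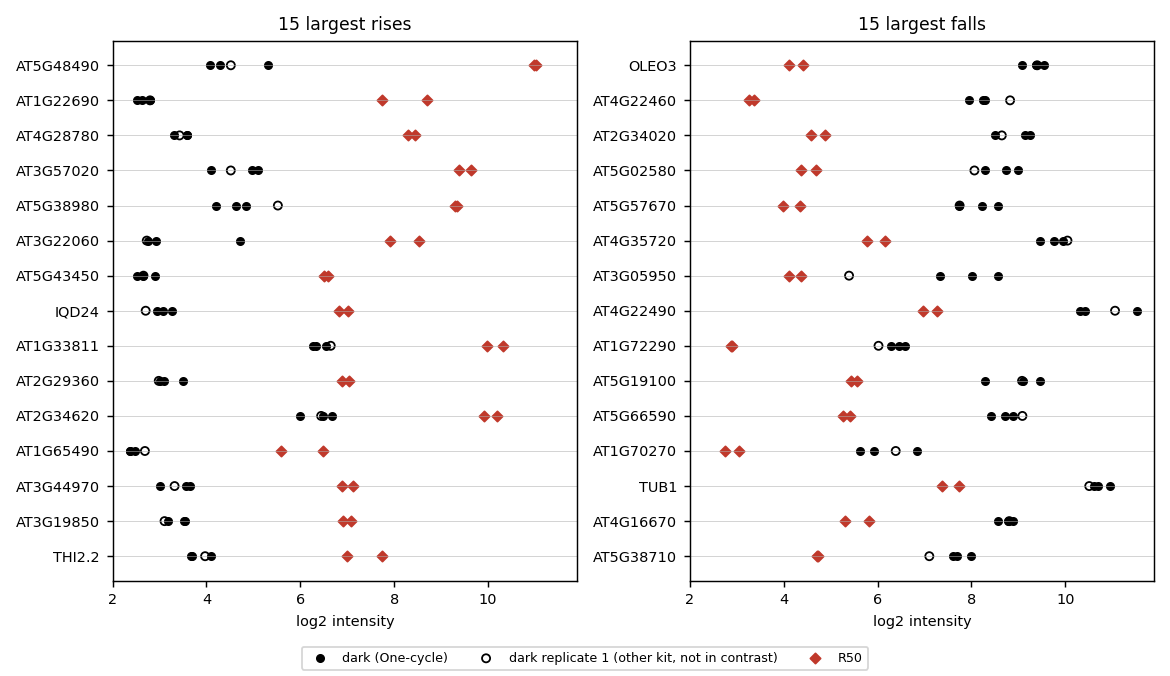
Log2 intensity of the 15 largest rises (left) and 15 largest falls (right) in wild type, 1 point per array: filled circles are the 3 dark arrays of the contrast, open circles dark replicate 1 of the other kit, and diamonds the 2 R50 arrays. In all 30 genes the diamonds lie clear of the filled circles, which the rule for naming them required.

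Several of these genes have neighbours on the chromosome that moved the same way. Counting named genes in the order of the RefSeq table, calls of any size in one direction fell on 213 pairs of next neighbours, 11 runs of 3 and 2 runs of 4, and every gene of the run changed at least 2-fold in 32 of the pairs, 1 run of 3 and 1 run of 4. With 12.1% of named genes called higher and 12.0% lower, some neighbours share a direction by chance, and how many was not worked out. These counts therefore do not show that changed genes cluster. The following windows were chosen after the values were seen. Between AT2G29260 and AT2G29370, 7 of 9 measured genes rose: AT2G29290 by 2.60, AT2G29300 by 1.74, AT2G29310 by 1.60, AT2G29320 by 2.23, AT2G29340 by 1.97 and AT2G29360 by 3.75, all of which kept their call with any array left out. TRI, in the middle of them, was at 6.12, 5.97 and 5.71 in darkness and 5.51 and 5.82 in red light, with overlapping groups and no call, and AT2G29370 at the end (change 0.14) was not called either.

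Between AT4G15660 and AT4G15710 all 5 measured genes rose. AT4G15660 rose by 2.31, AT4G15680 by 2.67, AT4G15690 by 2.09, AT4G15700 by 2.19 and AT4G15710 by 0.92. Their dark levels ranged from 2.23 to 5.44, and their R50 levels from 3.50 to 8.20. Between AT3G05900 and AT3G05950, 4 of 5 measured genes fell, with AT3G05910 down by 1.09, AT3G05920 by 2.35 and AT3G05950 by the 3.73 given above, while AT3G05940 changed by -0.04. The fourth member called there, AT3G05900, lost its call without R50 replicate 1 (adjusted p = 0.052), and in the AT2G29260 window the seventh, AT2G29260 itself (0.41), lost it with either R50 array, dark replicate 3 or dark replicate 4 left out (0.075 to 0.16). AT4G22460 and AT4G22490 also lie close together, but AT4G22470 between them was called higher (0.88), a call lost without R50 replicate 1 (0.30, adjusted p = 0.58) and without dark replicate 2 (0.091), and AT4G22510 (0.06) and AT4G22530 (-0.01) were not called. Probe sequences were not compared here, so signal shared between like genes was not tested.

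Gene groups were made from families of symbols, 59 lists with 883 genes, each gene counted once in the totals, and 154 of the 883 were called higher and 147 lower. The lists differ in direction, from a median change of 1.45 for nuclear photosystem and antenna genes to -1.05 for pectin methylesterases. A list's counts are to be read against the 12.1% of named genes called higher and 12.0% called lower, and genes with a symbol were called more often than the rest, as given above. Many counts of 3 or fewer moved by 1 or 2 genes when an array was left out, and larger counts that moved are given with that array. In what follows, a gene is said to have risen or fallen only where it was called, and named genes kept that call with each array left out unless it is said otherwise.

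**Figure D3:**
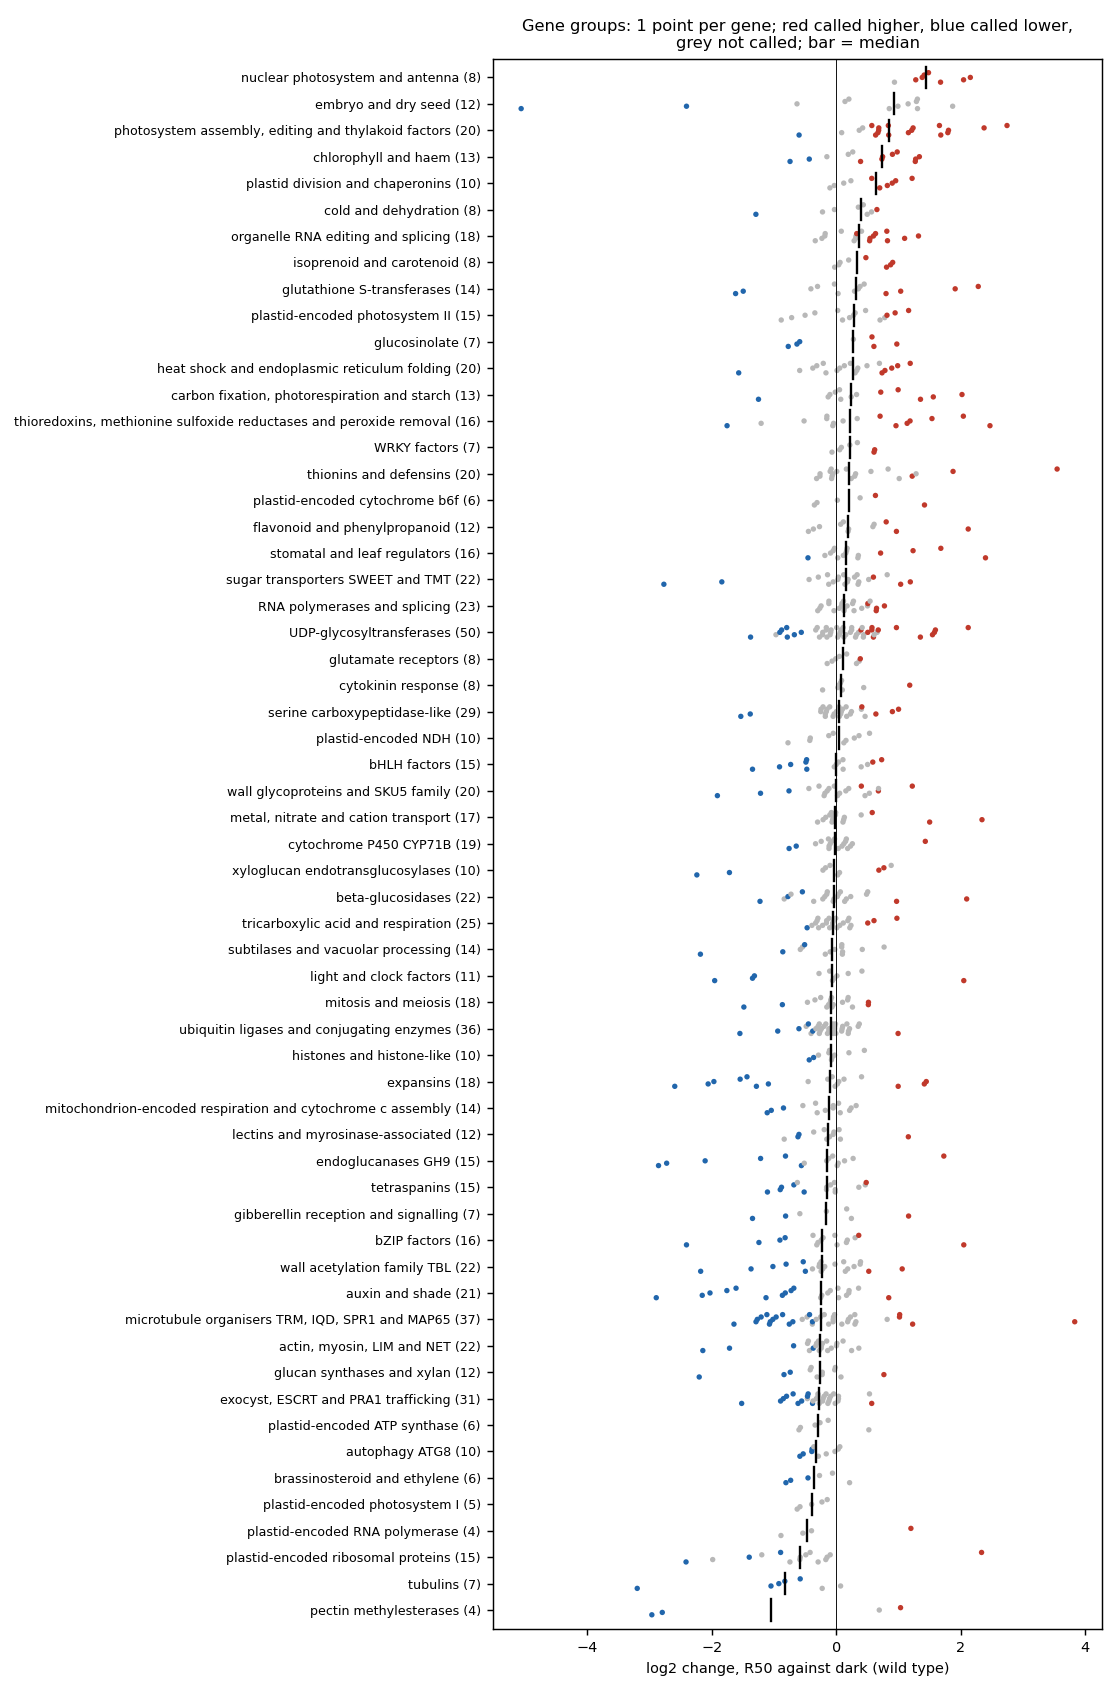
Log2 change between R50 and dark arrays of wild type for every measured member of the 59 gene lists, 1 point per gene, with the number of members in brackets and the median as a black bar. Red points were called higher, blue lower and grey neither; lists of nuclear chloroplast genes lie to the right, and tubulins and pectin methylesterases to the left.

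Nuclear genes for chloroplast proteins rose together. Of 8 photosystem and antenna genes, 7 rose and none fell. PSAN, a subunit of photosystem I, stood at 10.23, 10.58 and 10.54 in darkness and 12.55 and 12.44 in red light. LHCB4.2, a minor antenna protein of photosystem II, stood at 9.29, 9.51 and 9.80 against 11.67 and 11.72. Both genes were well expressed in darkness already and about 4-fold higher in light. The 20 factors of photosystem assembly and thylakoid function had 16 rises and 1 fall, with a median change of 0.84; 11 of the 16 kept the call with any array left out. CaS, a calcium-sensing protein of the thylakoid, rose by 2.74 (7.25, 7.21 and 6.87 against 9.92 and 9.79). PIFI, a stromal protein linked to the chloroplast NDH complex, rose by 2.38, and NdhS, a subunit of that complex, by 1.80. The fall was that of LIL3:2, a light-harvesting-like protein, by 0.60.

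Enzymes and housekeeping factors of the plastid moved the same way by less. Of 13 genes of chlorophyll and haem synthesis and turnover, 8 rose, among them HEME1 (uroporphyrinogen decarboxylase) by 1.34, NOL (a chlorophyll b reductase) by 1.28 and CHLM (magnesium protoporphyrin methyltransferase) by 1.27. A further 2 members were called lower. PORB, a light-dependent protochlorophyllide oxidoreductase that works in etioplasts, changed by -0.43, and this call was lost without R50 replicate 2 (adjusted p = 0.12) and without dark replicate 3 (0.057). Of 10 genes of plastid division and protein folding or breakdown, 6 rose and none fell; FTSZ2-1, of the ring that divides plastids, rose by 1.22 and CLPP4, of the plastid Clp protease, by 0.96. Of 18 genes listed by symbol family under organelle RNA editing and splicing, 9 rose and none fell, a count that dropped without R50 replicate 1. Membership went by symbol, so it does not show that each member edits or splices RNA. CRR42 rose by 1.32, OTP81 by 1.10 and CRR22 by 0.82.

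Among 13 genes of carbon fixation, photorespiration and starch, 5 rose and 1 fell. HPR, the hydroxypyruvate reductase of photorespiration, rose by 2.02 (10.21, 11.23 and 10.65 against 12.63 and 12.80), SBPASE of the Calvin cycle by 1.56 and RCA, Rubisco activase, by 1.35. APL3, a large subunit of ADP-glucose pyrophosphorylase in starch synthesis, fell by 1.25. Of 16 thioredoxins, methionine sulfoxide reductases and peroxide-removing enzymes, 7 rose and 1 fell. MSRB6 rose by 2.47, TRXF2, a chloroplast thioredoxin that activates Calvin cycle enzymes, by 2.04 and TAPX, the thylakoid ascorbate peroxidase, by 1.54. MSRB9, another methionine sulfoxide reductase, moved the other way: it stood at 9.83, 9.36 and 10.05 in darkness and at 8.13 and 7.86 in red light. Of 8 genes of isoprenoid, carotenoid and ascorbate synthesis, 4 rose and none fell. MENG, which completes phylloquinone, rose by 0.91, VTC4 of ascorbate synthesis by 0.87 and LYC, lycopene cyclase, by 0.81. The call of VTC4 was lost with the 5 arrays fitted alone (adjusted p = 0.077) and with the other dark array pooled in and no kit term (0.65, adjusted p = 0.061).

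Fewer of the genes encoded in the plastid itself were called. Of 69 such genes, 7 were called higher and 4 lower (15.9%), and the median change was -0.31. Their median SE, pooled over arrays of both kits, was 0.36 against 0.16 over named genes. The 3 dark arrays spanned a median of 0.525 against 0.317. The dark array of the other kit read many plastid genes well below these arrays, as psaA at 4.18 against 9.41 to 10.85. Others stayed near them, as rbcL at 9.98 against 9.70 to 9.89. The part of the kit in the SE was not tested. Groups did not overlap in 39 of the 69 genes with both directions pooled, more of them lower than higher in red light. Among named genes, non-overlap amounted to 21.0% higher and 23.3% lower. The fewer calls therefore do not by themselves show a weaker response. None of the 5 photosystem I genes, 6 ATP synthase genes or 10 NDH genes was called by limma, and 0, 0 and 2 of them had an unadjusted p under 0.05; in NDH genes 1 call appeared without dark replicate 2, 3 or 4. Of 15 photosystem II genes, 3 were called higher, psbE by 1.16, psbL by 0.95 and psbJ by 0.82, and the call of each was lost without R50 replicate 1 (adjusted p 0.050 to 0.069), without R50 replicate 2 (0.20 to 0.22) and without dark replicate 3 (0.10 to 0.11). The call of psbJ was lost without dark replicate 4 as well (0.055).

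The plastid calls that kept with any array left out were rps14, rpoB and petD, all higher. rps14, a protein of the small plastid ribosome subunit, stood at 3.78, 3.89 and 5.40 in darkness and 6.72 and 6.67 in red light. rpoB, the beta subunit of the plastid-encoded RNA polymerase, stood at 4.20, 4.51 and 4.12 against 5.48 and 5.47. petD of the cytochrome b6f complex stood at 3.62, 3.94 and 5.23 against 5.65 and 5.72. In rps14 and petD, dark replicate 4 was nearer to the R50 arrays than the other dark arrays were. rbcL, the large subunit of Rubisco and in none of the complex lists, was called lower, at 9.70, 9.89 and 9.77 against 8.76 and 8.21, a change of -1.31; its call was lost without R50 replicate 2 (-1.03, adjusted p = 0.062), and it was picked with its values in view. Its groups did not overlap. rpl16, of the large ribosome subunit, was also called lower, at 10.35, 10.04 and 8.37 against 7.40 and 6.94, a change of -2.41 ± 0.71 (adjusted p = 0.015); the call was lost without R50 replicate 1 (0.055), R50 replicate 2 (0.11), dark replicate 2 (0.063) or dark replicate 3 (0.052).

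**Figure D4:**
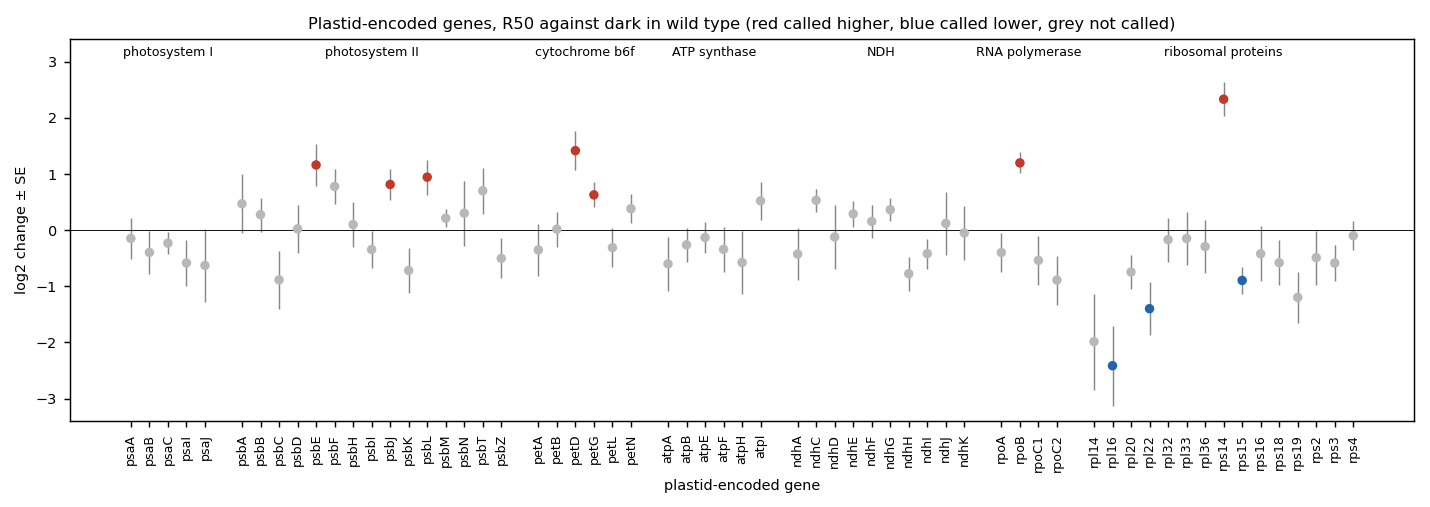
Log2 change ± SE between R50 (n = 2) and dark (n = 3) arrays of wild type for the plastid-encoded genes of 7 complexes, with the change on the vertical axis and genes grouped along the horizontal axis. Most points lie within 1 log2 unit of 0 and are grey (not called), and the widest error bars belong to ribosomal protein genes.

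Wall-modifying genes went in both directions, with more falls than rises in most families. Of 18 expansins, proteins that loosen the wall, and expansin-like genes, named EXL, 7 fell and 3 rose. Falls included genes of both kinds. EXLA2 fell by 2.60, from 7.57, 7.40 and 8.27 to 5.23 and 5.07. EXPB1 fell by 2.06 and EXPA9 by 1.97. The 3 rises were EXPA7 (1.45), EXPA18 (1.42) and EXPA16 (1.00), all from dark levels under 5. EXPA7 and EXPA18 are known from root hairs, and their mean level was 3.56, 3.55 and 4.61 in the dark arrays and 5.23 and 5.44 in the R50 arrays; the part of root hair cell numbers was not tested.

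Of 15 GH9 endoglucanases, 6 fell and 1 rose: GH9B8 fell by 2.86, GH9B13 by 2.73 and GH9C2 by 2.11, and GH9C1 rose by 1.73. Of 4 pectin methylesterases, which remove methyl groups from pectin, PME61 fell by 2.96 and ATPMEPCRD by 2.80 while PMEPCRF rose by 1.03. ATPMEPCRD stood at 11.27, 11.21 and 11.18 in darkness and 8.08 and 8.77 in red light, so the dark arrays were nearly equal and the R50 arrays about 7-fold lower. Of 12 glucan synthase and xylan genes, 3 fell and 1 rose; CSLC04, of the family that makes the xyloglucan backbone, fell by 2.20, CSLC5 by 0.84, and CSLA03 rose by 0.77. Pooling the other dark array in, with no kit term, ended the call of CSLC5 (-0.59, adjusted p = 0.072). XTH33 and XTH19, enzymes that cut and rejoin xyloglucan, fell by 2.24 and 1.72, 2 of the 4 called genes among 10. The other 2 were called higher, and neither kept its call with each array left out.

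In the TBL family of wall acetylation, 6 of 22 fell and 2 rose, with 3 lower calls left without either R50 array. TBL38 (-2.18) and TBL39 (-1.37) kept the call throughout; TBL28 rose by 1.06. Of 20 wall glycoproteins and peptides, 3 fell and 3 rose. The peptide gene RALFL32 stood at 10.03, 9.70 and 9.80 in darkness and at 8.06 and 7.81 in red light, and RALFL22 fell by 1.22. EXO, which takes part in brassinosteroid-promoted growth, fell by 0.76. Of the 3 rises in this list, 1 was left without R50 replicate 2 and 1 without dark replicate 3.

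The microtubule genes fell beyond TUB1. Of 7 tubulins, 5 fell and none rose, all 5 with any array left out, and the median change was -0.83. TUA6 fell by 1.05 (11.73, 11.39 and 12.01 against 10.71 and 10.61) and TUB6 by 0.92 (10.56, 10.49 and 10.87 against 9.71 and 9.72). Neither gene had overlapping groups, though the dark arrays of TUA6 ranged from 11.39 to 12.01. Among 37 proteins that bind or arrange microtubules, 14 fell and 4 rose, 10 and 4 of them with any array left out, with a median change of -0.25. IQD26 fell by 1.64, TRM25 by 1.29 and ATMAP65-6, a microtubule cross-linker, by 1.27. IQD24, iqd21 (1.23) and TRM19 (1.02) rose, so the IQD family had members in both directions.

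Of 22 actin-linked genes, 4 fell and none rose, with 2 falls left without R50 replicate 1; PLIM2b, a protein that bundles actin, fell by 2.14 and NET2D, which binds actin at membranes, by 1.72. Of 31 genes of the exocyst, of ESCRT sorting and of the PRA1 family, 10 fell and 1 rose, with 6 falls left without R50 replicate 1; PRA1.B6 fell by 1.52, PRA8 by 0.90 and the exocyst subunit SEC15B by 0.85, and VPS2.2 rose by 0.57, a call lost with the other dark array pooled in and no kit term (0.39, adjusted p = 0.12). Of 15 tetraspanins, membrane proteins with 4 membrane spans, 5 fell and 1 rose. TET7 fell by 1.11, TET2 by 0.90 and TET8 by 0.88. TET8 stood at 9.99, 9.98 and 10.04 in the 3 dark arrays, among which it hardly varied, and at 8.97 and 9.28 in red light.

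More hormone and light signalling genes were called lower than higher. Of 21 auxin and shade genes, 10 fell and 1 rose, with a median change of -0.25, and 7 of the 10 kept the call with any array left out. IAA29, an Aux/IAA repressor known to follow shade, stood at 7.89, 7.60 and 7.34 in darkness and 4.82 and 4.61 in red light. IAA20 fell by 2.03 and WAG2, a kinase that acts on auxin transport, by 2.15. GH3.9 rose by 0.84 from levels under 3. Of 6 brassinosteroid and ethylene genes, 3 fell, among them BRH1 by 0.81 and BIM1, a partner of the brassinosteroid factor BES1, by 0.73.

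Of 7 gibberellin genes, SPT, a bHLH factor that restrains growth, fell by 1.35 and SLY2, an F-box protein, rose by 1.16; the third call, GID1B, a gibberellin receptor, changed by -0.81 and was lost without R50 replicate 2 (-0.61, adjusted p = 0.092). RR16, a type-A response regulator of cytokinin, rose by 1.18, the only call among 8 cytokinin genes. Of 11 light and clock genes, 3 fell and 1 rose. FHL, which carries phytochrome A into the nucleus, stood at 5.24, 4.98 and 4.93 in darkness and 3.14 and 3.05 in red light. HYH, the close relative of the light factor HY5, moved the other way, from 3.94, 3.60 and 3.79 to 5.95 and 5.70. MYBC1 fell by 1.32.

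Regulators of stomata and leaves rose in 4 cases of 16 and were lower in 1. YAB5, of the YABBY family of leaf polarity factors, stood at 4.33, 4.11 and 4.03 in darkness and 6.28 and 6.83 in red light. FMA, which acts at the last step of guard cell formation, rose by 1.68, and SPCH, which starts the stomatal lineage, by 1.23. CHX20, a cation exchanger of guard cells, stood at 3.54, 3.94 and 3.15 against 5.89 and 5.87. The 3 guard cell lineage markers had mean levels of 4.27 to 4.32 in the dark arrays and 5.29 and 5.48 in the R50 arrays, with 2 of the 3 called higher; the part of cell numbers was not tested.

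Families of transcription factors held calls in both directions. Of 15 bHLH genes, 6 were called lower and 2 higher, with 3 lower calls left without R50 replicate 1 or without dark replicate 3. LHW, a factor of vascular cell divisions, was among the lower ones at -0.91; ATMYC1, known from epidermal hair patterning, rose by 0.73. Pooling the other dark array in, with no kit term, ended the call of LHW (-0.62, adjusted p = 0.077). Of 16 bZIP genes, 4 were called lower and 2 higher, with HYH given above and bZIP52 down by 1.24. EEL, a bZIP factor that acts on late embryo genes, stood at 6.36, 6.56 and 7.02 in darkness and 4.19 and 4.29 in red light. Of 18 genes of cell division, SIM, an inhibitor of cyclin-dependent kinases known from trichomes, fell by 1.48, and the 3 others called were each lost with at least 1 array left out.

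Most of the listed embryo and seed genes, unlike OLEO3, were not called. The planned rule for oil body and seed storage genes matched OLEO3 alone. Of 12 in the list, OLEO3 and EEL fell and none rose, and the median change was 0.92; without dark replicate 4, 2 of the 12 were called higher. Without OLEO3 the mean level of the other 11 was 5.26, 5.96 and 7.05 in the 3 dark arrays and 6.91 and 6.38 in the R50 arrays, so the dark arrays spanned more than the groups differed. COR47, a dehydrin, fell by 1.29 from a high level (12.36, 12.28 and 12.45 against 10.94 and 11.21), the only fall among 8 cold and dehydration genes, and the 1 rise in that list was lost with an array left out. Of 20 heat shock and folding genes, 5 rose and 1 fell. Fes1B rose by 1.19, HSA32 by 0.99 and Fes1C by 0.89, while ATHSP22.0, a small heat shock protein, fell by 1.57.

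Enzymes of secondary metabolism changed singly within large families. Of 50 UDP-glycosyltransferases, 12 rose and 7 fell, with 7 rises left without R50 replicate 1 and 4 falls left without R50 replicate 2. UGT78D2, which adds glucose to flavonoids and anthocyanins, stood at 5.83, 5.50 and 5.52 in darkness and 7.75 and 7.73 in red light. UGT84A3 rose by 1.59, UGT71B1 by 1.58 and UGT78D1, a flavonol rhamnosyltransferase, by 0.97; UGT76E2 fell by 1.38 and UGT76B1 by 0.91. Of 14 glutathione S-transferases, 4 rose and 2 fell: GSTU16 by 2.28, GSTU18 by 1.91 and GSTU20 by 1.04 upward, GSTU26 by 1.62 and GSTU22 by 1.50 downward. GSTU16 and GSTU26 are of 1 subfamily, and neither had overlapping groups (3.24, 3.62 and 3.47 against 5.96 and 5.49 for GSTU16).

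Of 22 beta-glucosidases, 2 rose and 3 fell; BGLU33 rose by 2.10 and BGLU15 fell by 1.23. Of 29 serine carboxypeptidase-like genes, 4 rose and 2 fell, with 1 rise left without R50 replicate 1, and SCPL27 down by 1.38 and scpl40 by 1.53. CYP71B5 rose by 1.43 and CYP71B35 fell by 0.64 in a family of 19 cytochrome P450 genes with 3 calls. Of 14 subtilases and vacuolar proteases, 3 fell and none rose, ATSBT5.2 by 2.18 and SBT4.12 by 0.86. Among 12 lectins, JAL22 rose by 1.16 and JAL34 fell by 0.62. These families had medians within 0.15 of 0.

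Transporters of sugars and ions changed in a few members each. Of 22 SWEET and related sugar transporters, 3 rose and 2 fell. SWEET3 stood at 7.78, 7.11 and 7.19 in darkness and 4.68 and 4.50 in red light, and SWEET16, which sits in the vacuole membrane, fell by 1.84. SWEET1, a glucose transporter, rose by 1.19 and SFP2 by 1.04. Of 17 metal, nitrate and cation transporters, 3 rose and none fell; beside CHX20, MTP11, a manganese transporter, rose by 1.50 (7.16, 6.84 and 7.17 against 8.27 and 8.85) and CHX16 by 0.58. Among 36 ubiquitin ligases and conjugating enzymes, 5 were called lower and 1 higher, with 3 lower calls without R50 replicate 1 or dark replicate 3 and 2 without R50 replicate 2; the U-box ligase PUB19 fell by 1.55 and PUB23, of the same family, rose by 0.99. Of 23 RNA polymerase and splicing genes, 4 rose and none fell, with 2 rises left without R50 replicate 1, NRPC2 by 0.77 and NRPE7 by 0.64; with the other dark array pooled in and no kit term the call of NRPE7 was lost (0.46, adjusted p = 0.079).

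In several further lists, calls were lost when 1 array was left out. Of 10 autophagy genes around ATG8, 4 were called lower, and 1 was left without R50 replicate 1, 1 without R50 replicate 2, 2 without dark replicate 2 and none without dark replicate 3. Of 25 genes of the tricarboxylic acid cycle and respiration, 3 were called higher and 1 lower, and none of these without R50 replicate 1. Of 7 glucosinolate genes, 3 were called each way, with 1 higher and none lower without R50 replicate 1; AOP3, an enzyme of side-chain modification, rose by 0.97. Of 14 mitochondrion-encoded genes, 3 were called lower, none of them without R50 replicate 2 and 1 without dark replicate 3. Of 20 thionins and defensins, 3 were called higher, and without R50 replicate 1 only THI2.2 was. Of 12 flavonoid and phenylpropanoid genes, 3 were called higher and none lower, with 5 higher without R50 replicate 2; apart from the UGT78D genes, DFR, which acts late in anthocyanin synthesis, changed by 0.80, a call lost without R50 replicate 1 (0.50, adjusted p = 0.069). Of 7 WRKY factors 2 were called higher and of 8 glutamate receptors 1, and none of these was left without R50 replicate 1.

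The dark array of the other kit, which the contrast did not use, gave the same measure in a further dark sample. For the 592 genes called higher at 2-fold, its value was nearer the dark mean in 529 and nearer the R50 mean in 63, and it lay below both R50 values in 572. For the 498 called lower it was nearer the dark mean in 461 and above both R50 values in 491. On a scale where 0 is the mean of the other dark arrays and 1 the R50 mean, its median position was 0.095 and 0.022. This array differed from the rest in kit as well as in sample, and dark arrays correlated at 0.978 to 0.982 across kits. JAL22, a jacalin-related lectin, was among the exceptions: it stood at 8.59, 8.04 and 7.72 in the contrast's dark arrays, at 9.39 in the other dark array and at 9.17 and 9.39 in red light. AT2G48130 was another, with 6.50, 6.57 and 6.17, then 8.14, against 7.91 and 7.18. For both genes the call holds within the kit and not against all 4 dark arrays without overlap; they were chosen after their values were seen.

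**Figure D5:**
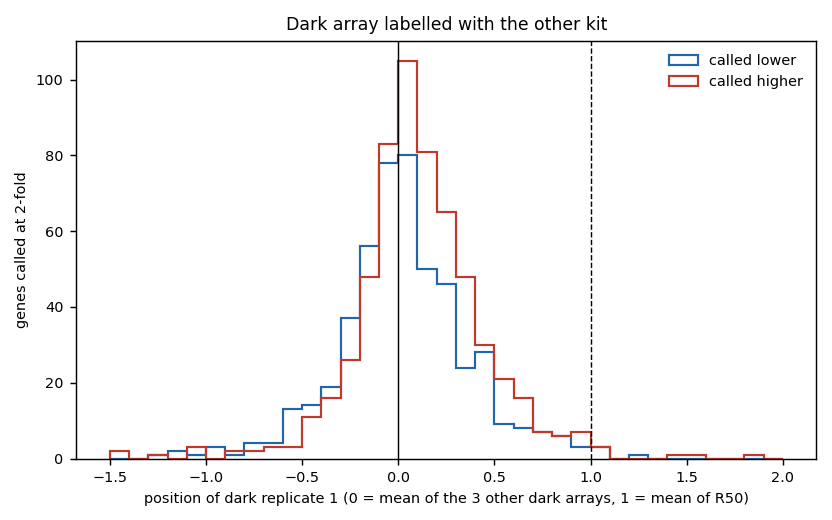
Position of dark replicate 1 on a scale from the mean of the other dark arrays (0, solid line) to the R50 mean (1, dashed line) for the genes called at 2-fold, as counts of genes per bin of position, with values beyond the ends put in the end bins. Genes called higher (red, 592) and lower (blue, 498) both peak at 0, with medians of 0.095 and 0.022.

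The wild-type response was also set against the response of the mutants in the same fit. Among named genes, 956 (7.16%) changed more upward in wild type than in phyABCDE, which lacks all 5 phytochromes, and 1031 (7.72%) more downward. Against phyABDE, which keeps phytochrome C, the counts were 817 (6.12%) and 768 (5.75%). Over all probe sets the shares were 8.27% and 8.90% against phyABCDE and 6.97% and 6.65% against phyABDE. All 15 of the largest rises differed from both mutants, by 2.84 to 5.58 against phyABCDE and by 2.85 to 5.68 against phyABDE. All 15 largest falls differed as well, by -5.01 to -2.69 and by -5.25 to -1.90. AT1G22690 differed by 5.58 from phyABCDE, as much as it rose in wild type, and AT5G48490 by 5.21, against its rise of 6.44. The genes were chosen on the wild-type values that also enter these differences, so they are given as a description. Wild-type arrays of this contrast carry the One-cycle kit and mutant arrays the other, so kit and genotype cannot be told apart in the difference.

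Signs of RNA quality differed little between the groups. The actin control's 3' probe set exceeded its 5' probe set by 3.12, 3.03 and 3.20 log2 units in the dark arrays and 3.31 and 3.45 in the R50 arrays, so both R50 values were above all dark ones. For GAPDH the differences were -0.05, 0.21 and 0.20 against 0.30 and 0.21, with overlapping groups. Their part in the calls was not tested. Of the other markers, 10 histone genes had mean levels of 6.59 to 6.68 in darkness and 6.51 and 6.59 in red light, with 2 called lower, and 4 xylem genes had 5.51 to 6.03 against 5.33 and 5.40, with 1 called lower.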

How the data were processed

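RNA of whole seedlings was measured on 22 ATH1 arrays. The authors deposited 1 linear intensity per probe set and array; per the submitters' processing notes, limma, GCOS and RMA were used, with neither version nor role stated, and further steps are not given in the sources used here. The series text names the One-cycle kit for 5 wild-type arrays, while the labels of single samples name the 3' IVT Express kit for all 22; the series text was followed. Values were taken as log2 with no further normalization. limma 3.58.1 in R 4.3.3 (lmFit, eBayes) fitted 8 group means and a kit term over 22 arrays (13 residual degrees of freedom), with Benjamini-Hochberg adjustment over 22746 probe sets after removing 64 controls. Summaries used pandas 2.3.3 and numpy 2.4.6 in Python 3.11.15, and plots matplotlib 3.10.9. Simulated on 22746 probe sets of this contrast, 83% of log2 changes of 1 and 95% of changes of 2 were recovered, with 7 false calls. The simulation changed 100 probe sets at each size and had independent noise without a kit effect. Far fewer probe sets changed in it than the 27.5% called here, so the 7 false calls do not measure the error of these calls.

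Probe sets took their genes from GEO's platform annotation, of which 13436 of 13513 with 1 gene matched RefSeq (TAIR10.1), used for names, gene types and neighbour order; 503 have several genes and 8730 are unnamed here. The members and lists were chosen with earlier results of these data known. Of 56 planned list rules 29 had under 3 measured members, so 59 lists of symbol families were added after the names had been opened; 1 further family is not reported here. Named are the 15 largest called rises and falls among genes whose groups did not overlap and whose brighter mean was at least 6, and per list at most 3 called members each way, or the brightest member where fewer than 2 were called. The text says where a gene outside this rule was picked with its values in view. Alternatives changed the samples, kit term, replicate block, spread, offset, normalization, filter and probe sets.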

Additional observations from a re-analysis of the deposited data

Results flagged for a closer look

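In 11 of 230 named genes, 1 of the 4 wild-type dark arrays stood apart by Dixon's test. Chance alone marks about 1 in 20 groups. In 3 of the 11 that array was dark replicate 1, the one of the other kit: LHW at 5.92, SLY2 at 3.63 and ccb452 at 4.37. In dark replicate 2 these were PMEPCRF at 7.22 and TBL37 at 9.69. In dark replicate 3 they were HTB2 at 7.04, XTH19 at 9.14 and XTH32 at 6.87, and in dark replicate 4 AT3G22060 at 4.71, APG8A at 8.86 and SIM at 9.76.

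The difference between the responses of wild type and mutants was tested as an interaction over all 22746 probe sets. Against phyABCDE, 1882 were called higher and 2024 lower in wild type, and against phyABDE 1585 and 1512.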

How the results depend on the processing

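None of the 230 named genes changed direction under an alternative that tested it. Over all probe sets the contrast called 3115 higher and 3130 lower, 1194 and 1012 at 2-fold. With only probe sets of 1 gene tested, which holds fewer features, the calls were 1595 and 1585, and 593 and 499 at 2-fold. With the offset of 16, 670 were lower at 2-fold. With each of the 5 arrays left out, higher calls ranged from 2149 to 3144 and lower calls from 2059 to 2987, the latter minimum without R50 replicate 1; at 2-fold the ranges were 1110 to 1292 and 964 to 1080, and list members called 110 to 162 higher and 108 to 147 lower. A lone array left in R50 is assumed to vary like the other groups. In the same fits the differences from phyABCDE ranged from 1342 to 2017 higher and 1397 to 2040 lower, and those from phyABDE from 1173 to 1658 and 1108 to 1532. With only the 5 arrays in the fit, 2386 and 2293 were called.

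The labels do not say whether a replicate number pairs arrays. The groups share only number 2, with a correlation of deviations of 0.0023, and 1 such pair cannot show whether the numbers mark a shared batch. With the replicate block the contrast rests on 1 pair, and 1934 were called higher and 1863 lower, and 102 and 95 list members. Medians of 14 lists, the largest of them 0.30 from 0, changed sign under 1 or more alternatives. The 30 largest rises and falls kept their call in every fit that tested them; 8 were below the filter on a mean level of 5. Of all 230 named genes, 64 lost the call with the block, 45 without R50 replicate 1, 39 without R50 replicate 2 and 29 with the 5 arrays alone; the cause was not tested. The planned promoter comparison was not run. Dim signals limit the calls, as the shares called by signal class show.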
